A study of Mus musculus with 6 samples.

Results

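Within the CD8+ T cells of 1 control mouse tumor library, the cells of expanded clones were compared with the cells of clones seen only once. A clone was a set of cells with the same nucleotide sequence of the CDR3 in the TCR alpha (TRA) and in the TCR beta (TRB) chain, taking in each cell the contig of each chain with the most unique molecular identifiers (UMIs, 1 per captured RNA molecule). Cells needed a TRA contig, a TRB contig and at least 1 UMI each of Cd8a and Cd8b1. Expanded clones were defined as 20 or more cells and single-cell clones as exactly 1 cell. Of the 4613 control tumor cells with a clone, 4016 cells (87.1%) belonged to 23 expanded clones and 219 cells (4.75%) were single-cell clones. The 59 clones of 2 to 19 cells held the other 378 cells. The series holds 47860 cell barcodes in all.

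The study asked how IFNγ sensing by CD8 T cells shapes their state and clonality in tumors. Mice with CD8-Cre and Rosa26Tomato (controls), or with CD8-Cre, Rosa26Tomato and IFNgR1flox/flox (CD8-IFNgRKO), carried B16-OVA, a mouse melanoma line that expresses ovalbumin. Tumors and draining lymph nodes (LN) were taken after 12 days, and CD45+ CD3+ CD8+ Tomato+ cells were sorted for 5′ single-cell RNA and, in tumors, TCR sequencing. Each genotype had 3 mice but 1 library per tissue. The labels do not assign cells to mice, so that cells of different mice were not told apart and no difference has a replicate. Both genotypes carry the Cre and the Tomato reporter. The Cre is driven by a CD8 promoter, so the deletion of the receptor concerns CD8 T cells and leaves the tumor and the other host cells with it. Mice were 6 to 10 weeks old. Intervals below are 95% intervals of counting error alone (exact Poisson for levels, Clopper-Pearson for shares and exact conditional for ratios), and no p-value is given because cells and clones are not replicates of the tumor.

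A T cell clone is the progeny of 1 naive cell, and the CDR3 loops of its paired alpha and beta chains are the part of the receptor that mostly contacts the peptide antigen. Clones whose receptor binds a tumor antigen can divide many times in the tumor, and under persistent antigen such cells come to express inhibitory receptors such as PD-1 and the transcription factor TOX. Naive and stem-like T cells instead rely on TCF-1 (Tcf7), LEF1 and KLF2, which maintain quiescence, lymph node homing and the capacity to self-renew.

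The receptors of the 5 largest expanded clones and of the smallest are printed to show which sequences define the groups. The germline segments lie in the Tra locus of chromosome 14 and the Trb locus of chromosome 6, and the rearranged CDR3 has no single genome position. Capitals mark the junction, here the bases that lie between the start shared with most other CDR3s of the same V segment and the end shared with most of those of the same J segment.
Clone 1, 1164 cells, TRAV12-3 and TRAJ42: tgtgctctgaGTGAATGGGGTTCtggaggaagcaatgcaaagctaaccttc
Clone 1, TRBV12-1 and TRBJ2-4: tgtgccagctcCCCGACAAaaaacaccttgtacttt
Clone 2, 1075 cells, TRAV5-1 and TRAJ16: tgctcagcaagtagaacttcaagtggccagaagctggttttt
Clone 2, TRBV14 and TRBJ1-1: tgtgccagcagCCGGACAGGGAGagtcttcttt
Clone 3, 557 cells, TRAV13D-2 and TRAJ39: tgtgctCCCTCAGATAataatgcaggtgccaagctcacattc
Clone 3, TRBV15 and TRBJ2-1: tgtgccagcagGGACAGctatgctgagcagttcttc
Clone 4, 184 cells, TRAV9D-3 and TRAJ7: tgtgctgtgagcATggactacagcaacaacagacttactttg
Clone 4, TRBV16 and TRBJ2-5: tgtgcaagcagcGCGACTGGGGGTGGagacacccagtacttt
Clone 5, 178 cells, TRAV13-1 and TRAJ32: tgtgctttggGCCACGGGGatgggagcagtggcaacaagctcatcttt
Clone 5, TRBV16 and TRBJ2-7: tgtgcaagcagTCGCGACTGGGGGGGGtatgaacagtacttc
Clone 23, 20 cells, TRAV2 and TRAJ31: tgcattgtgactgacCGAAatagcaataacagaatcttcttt
Clone 23, TRBV12-2+TRBV13-2 and TRBJ2-5: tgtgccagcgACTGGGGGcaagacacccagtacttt

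The 6 clones used different alpha V and J segments, and clones 4 and 5 shared the beta V segment TRBV16 with different junctions. The alpha chain of clone 2 has no marked base. A chain was also left unmarked where too few other CDR3s used its V or J segment, so that this is no sign of a missing junction. Clones 1 to 3 held 2796 cells, which was 69.6% of the expanded-clone cells and 60.6% of all cells with a clone. The median expanded clone had 47 cells. No clone of the control tumor shared both CDR3s with a clone of the CD8-IFNgRKO tumor.

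**Figure D1:**
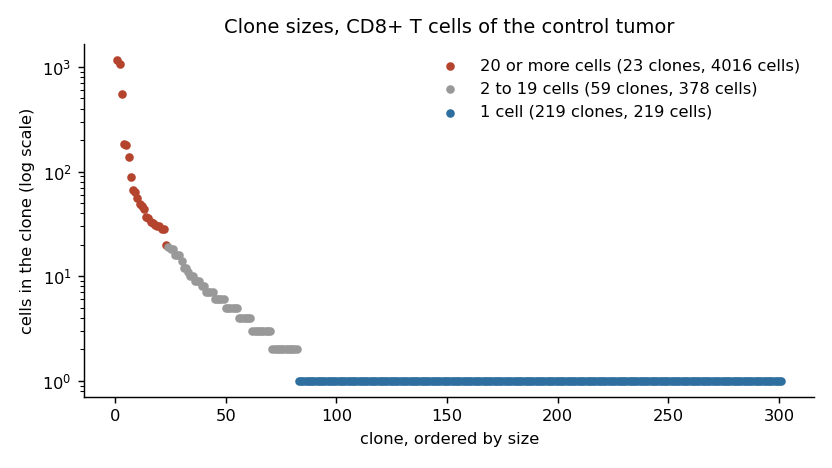
Number of cells in each of the 301 clones of the control tumor (log scale), ordered by size. The 23 clones of 20 or more cells hold 4016 cells, with 1164, 1075 and 557 cells in the first 3 clones, and 219 clones hold 1 cell each.

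The single-cell group rests on far fewer molecules. Its cells summed to 1030896 UMIs and those of expanded clones to 29434498, so that 1 UMI was worth 0.970 CPM (UMIs of a gene relative to the summed UMIs of the group, scaled to 1000000) in single-cell clones and 0.0340 CPM in expanded clones. Single-cell clones had a median of 3826 UMIs and 1503 genes per cell, against 6224 UMIs and 2204 genes in expanded clones. Ribosomal protein genes took 28.3% of UMIs in single-cell clones and 19.8% in expanded clones. More than 1 TRA contig was found in 24 of the 219 single-cell clones (10.96%) and in 64 of the 4016 expanded-clone cells (1.59%). Of the single-cell clones, 8 shared at least 1 chain with a larger clone (4 the TRA and 5 the TRB CDR3). Some contig with the CDR3 of an expanded clone was held by 3 cells. Of the cell barcodes, 200 in expanded clones and 11 in single-cell clones also occurred in another RNA library of the series. The log2 ratio of Tcf7 given below (-6.14) was -6.46 in cells with exactly 1 TRA and 1 TRB, -6.17 without the 3 cells and -6.25 without the shared barcodes, and that of Prf1 (2.89) was 2.94, 2.99 and 2.84. Under the same alternatives 886, 830 and 839 genes (of 5501, 5473 and 5479 ranked) were at least 1.5-fold higher in expanded clones. The lower genes were 586, 519 and 509, where all cells gave 812 higher (14.8% of 5474 genes) and 511 lower (9.34%).

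Both groups carried the T cell markers of the sort. Cd3d, Cd3e and Cd3g were present in both, whereas Cd8a and Cd8b1 were used to choose the cells and are no finding. All 9 macrophage and monocyte markers were at 0 UMIs in single-cell clones and summed to 9.51 CPM in expanded clones. Of the NK cell markers, which summed to 87.3 CPM in single-cell clones and 29.2 CPM in expanded clones, Ncr1 and Klra8 were at 0 in both groups and Eomes, which memory CD8 T cells also express, gave 84 and 750 UMIs. Melanoma markers summed to 22.3 and 4.48 CPM, B cell markers to 3.88 and 0.306 CPM, dendritic cell markers to 17.5 and 42.3 CPM, and fibroblast and endothelial markers to 24.3 and 3.70 CPM in single-cell and expanded clones, the last from Pecam1 alone in single-cell clones. CD4 and regulatory T cell markers summed to 1.94 and 6.25 CPM and erythroid markers to 0 and 0.170 CPM. Neutrophil markers and the gamma-delta T cell markers Trdc and Sox13 were at 0 in both groups. The part of these signals in the differences below was not tested.

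Most inhibitory receptors, cytotoxic granule proteins and chemokines were higher in expanded clones, and most stem, naive and lymph node homing genes were higher in single-cell clones. Of 5474 genes with enough counts to rank (a mean of at least 20 CPM over the 2 groups and at least 100 UMIs in all), 812 genes (14.8%) were at least 1.5-fold higher in expanded clones and 511 genes (9.34%) at least 1.5-fold lower. At least 4-fold differences were found for 74 and 49 genes. The median log2 ratio of all ranked genes was 0.06, with all log2 ratios computed from CPM with 1 CPM added, which understates the change of low genes. The balance of the counts depended on the scaling. As an alternative, the library size was summed without TCR, mitochondrial, ribosomal protein and heat shock genes. This raises every CPM, so that 6383 genes passed the filter in place of 5474. Of them, 636 genes were higher and 1063 lower, and the share of higher genes among these was 37.4% in place of 61.4%. The median log2 ratio was -0.11, so that ratios near 0 below depend on the scaling. Among the 23 lists described below, only the median of the immediate early genes changed sign with it.

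The stem and naive transcription factors were lower in expanded clones, with 8 of 9 ranked genes at least 1.5-fold lower, none higher, and a median log2 ratio of -2.34. Tcf7 (ENSMUSG00000000782, chromosome 11, 52246527 to 52283383 in GRCm38.p6), which encodes TCF-1, the factor that marks stem-like CD8 T cells, was at 358 CPM in single-cell clones (interval 322 to 396) and at 4.08 CPM in expanded clones (3.38 to 4.87), a log2 ratio of -6.14 (-6.40 to -5.88). Across the 23 expanded clones its lowest, median and highest levels were 0, 1.88 and 124 CPM, with 8 clones at 0. Every expanded clone lay below the pooled single-cell level, although single cells of both groups overlap, as given below for equal depth. Klf3, a repressor of the same family as KLF2, gave the third lowest ratio of all ranked genes (105 and 0.985 CPM, log2 ratio -5.74). Lef1, the partner of TCF-1, was at 124 CPM in single-cell clones and at 6.31 to 48.7 CPM in the expanded clones (log2 ratio -2.67). Klf2, the factor that drives S1pr1, was at 758 CPM in single-cell clones and at 52.6 to 448 CPM across expanded clones (log2 ratio -2.24). Log2 ratios were -2.62 for Bach2, a repressor of effector genes, -2.34 for the chromatin organiser Satb1, -1.73 for the quiescence factor Foxp1 and -1.86 for Myb. Foxo1, which controls Klf2 and Il7r, was the ranked gene that did not reach 1.5-fold (84.4 and 60.0 CPM, log2 ratio -0.49). Id3 and Bcl6 had too few counts to rank. Summed over the list, single-cell clones had 1996 CPM, and the lowest, median and highest expanded clone had 201, 409 and 865 CPM.

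Surface genes of naive and stem-like cells followed for receptors of lymph node homing and survival, but not for costimulatory receptors on the same list. Of 12 ranked genes, 8 were lower, 1 was higher, and the median log2 ratio was -2.16. Ccr7, the chemokine receptor for entry into lymph nodes, was at 618 CPM in single-cell clones and at a lowest, median and highest of 0, 40.8 and 334 CPM in expanded clones (log2 ratio -3.76). S1pr1, the receptor for egress from tissue, was at 127 CPM in single-cell clones and 0, 5.07 and 98.9 CPM in expanded clones (log2 ratio -4.60). No expanded clone reached the single-cell level of either gene. The log2 ratio was -2.46 for Il7r, the receptor of the survival cytokine IL-7, -3.21 for Slamf6, -4.98 for Dapl1, -1.47 for the chemokine receptor Cxcr3 and -1.87 for Xcl1, a chemokine that attracts cross-presenting dendritic cells. For Xcl1, 1 cell gave 42.6% of the UMIs of the single-cell group. The costimulatory receptor Icos was higher in expanded clones (181 and 275 CPM), and Cd27, Cd28 and Ltb had log2 ratios of 0.46, 0.27 and -0.09.

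Among homing, egress and residency genes, 7 of 13 ranked genes were lower and 2 higher (median -0.64). Beside S1pr1 and Klf2, the lower genes included Cd69, an early activation and retention molecule (233 and 76.5 CPM, log2 ratio -1.59), and the integrin chains Itgb7 (-1.83), Itgb1 (-0.73) and Itga4 (-0.64). The higher genes were the integrin chains Itgav (1.48) and Itgb2 (0.98), the beta chain of LFA-1. Itga4 was below the single-cell level in 14 and above it in 9 expanded clones, and its ratio was 0.13 without the 3 largest clones. The activation marker Cd44 was at 74.7 and 86.4 CPM (log2 ratio 0.21, interval -0.12 to 0.55).

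Inhibitory receptors were higher in expanded clones for 10 of 11 ranked genes, with a median log2 ratio of 1.46. Pdcd1 (ENSMUSG00000026285, chromosome 1, 94038305 to 94052553), which encodes PD-1, was at 202 CPM in single-cell clones (175 to 231) and at 871 CPM in expanded clones (860.5 to 882), a log2 ratio of 2.10 (1.91 to 2.31). The lowest, median and highest expanded clone had 189.5, 837 and 988 CPM, and 1 clone lay just below the single-cell level. Lag3, a receptor for MHC class II, was at 199 CPM in single-cell clones and at 412, 935 and 1519.6 CPM across expanded clones (log2 ratio 2.23). Havcr2, which encodes TIM-3 and marks terminally exhausted cells, was at 42.7 CPM in single-cell clones and at 115, 276 and 419 CPM across expanded clones (log2 ratio 2.92). For both, all 23 clones lay above the single-cell level. Tigit (1.37), the ectonucleotidase gene Entpd1 (1.70), Cd38 (1.46), Cd160 (1.15), Cd200 (0.98) and Ctla4 (0.69) were higher by smaller ratios. Cd244a, which encodes 2B4, rested on 3 UMIs in single-cell clones (2.91 and 42.4 CPM, log2 ratio 3.47, interval 2.19 to 4.76). Cd274, the gene of the ligand PD-L1, was at 46.6 and 51.6 CPM (log2 ratio 0.15, interval -0.26 to 0.58). Summed over the list, single-cell clones had 1235 CPM and the lowest, median and highest expanded clone had 1816, 3683 and 4307 CPM.

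Effector and exhaustion transcription factors were mixed, with 10 of 19 ranked genes higher, 2 lower and a median of 0.73. Tox, the factor that programs exhaustion, was at 52.4 CPM in single-cell clones and at a lowest, median and highest of 0, 120.1 and 214 CPM in expanded clones (log2 ratio 1.09). 20 of the 23 clones were above the single-cell level. Higher ratios were found for Prdm1, which encodes BLIMP-1 (1.90), the NOTCH effector Rbpj (1.89), Irf8 (1.74), Id2 (1.60), Bhlhe40 (1.48) and Nr4a2 (1.21). Zeb2 (0.82), Tbx21, which encodes T-bet (0.77), and Ikzf3 (0.73) passed 1.5-fold by less. The 2 lower genes were Eomes, a T-box factor of memory and exhausted cells (81.5 and 25.5 CPM, log2 ratio -1.64), and Ikzf2, which encodes Helios (-0.59). Batf, Irf4, Runx3 and Nr4a1 were within 1.5-fold, with log2 ratios of 0.11, -0.32, -0.15 and -0.19.

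Granzymes and granule proteins were higher in expanded clones for 10 of 15 ranked genes and lower for 3 (median 1.37). Prf1, the pore-forming protein perforin, was at 162 CPM in single-cell clones (138 to 189) and at a lowest, median and highest of 49.4, 1044 and 1442 CPM in expanded clones (log2 ratio 2.89, interval 2.67 to 3.11). Gzmb, the main apoptosis-inducing granzyme (ENSMUSG00000015437, chromosome 14, 56258836 to 56262334), was at 1079 CPM in single-cell clones and at 841, 3065 and 4704 CPM across expanded clones (log2 ratio 1.67). Prf1 was above the single-cell level in 21 and Gzmb in 22 of the 23 expanded clones. The granzymes between Gzmb and Gzme on chromosome 14 (56117619 to 56262334) showed the widest differences, although near-identical copies there make the split of reads between them uncertain. Gzmf was at 6.79 CPM (7 UMIs) in single-cell clones and at 0, 136 and 1433 CPM across expanded clones (log2 ratio 6.51). Log2 ratios were 7.12 (5.68 to 8.38) for Gzme, 5.70 (4.63 to 6.88) for Gzmd and 4.48 (3.58 to 5.49) for Gzmc, which rested on 2, 5 and 8 UMIs in single-cell clones. With so few UMIs these ratios moved beyond their intervals, as Gzmd was at 3.28 with exactly 1 TRA and 1 TRB and at 8.28 without the highest Scrublet scores, Gzme at 5.64 and 8.72 in the same order, and Gzmc at 3.10 after thinning. Gzmg had no UMI there and 13.9 CPM in expanded clones, 4.79-fold higher when set against 3 UMIs, the floor used here for a count of 0. The exact Poisson interval of a count of 0 ends above 3 UMIs, so that such folds are no strict lower limits.

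The granzyme family was not uniform. Gzma, on chromosome 13, was at 485 CPM in single-cell clones and 29.6 CPM in expanded clones (log2 ratio -3.99), but 1 single cell gave 40.8% of the UMIs of its group, and without that cell the log2 ratio was -3.25. Expanded clones ranged over 0, 14.2 and 719.8 CPM (lowest, median and highest), with 1 clone above the single-cell level. Gzmk, its neighbour, was at 181 and 119.8 CPM in the pooled groups (log2 ratio -0.59), yet 11 of 23 clones lay above the single-cell level and the sign turned when clones were weighted equally (0.21) or the 3 largest were left out (0.33). Lamp1, a lysosomal membrane protein exposed on degranulation, was lower (-1.52). Nkg7 (1.28), Fasl (1.13) and the granzyme inhibitors Serpinb9 (1.37) and Serpinb6b (1.58) were higher in all 23 clones. Ctsw and Srgn had log2 ratios of -0.01 and 0.34.

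Cytokines and chemokines were higher for 9 of 12 ranked genes, lower for Xcl1 only, and had a median log2 ratio of 1.94. Ifng was at 124 CPM in single-cell clones (104 to 148) and at a lowest, median and highest of 216, 367 and 583 CPM in expanded clones (log2 ratio 1.98), with all 23 clones above. Csf1, the macrophage growth factor (3.19), Tnf (1.55) and Ccl5 (0.90) were higher as well. Ccl3 (2.68) and Ccl4 (1.91), closely related inflammatory chemokines, were at 80.5 and 361 CPM in single-cell clones, where 1 cell each gave 28.9% and 48.4% of the UMIs. Spp1, which encodes osteopontin, was at 46.6 CPM in single-cell clones, of which 1 cell gave 79.2%, and at 0, 124 and 3220.2 CPM across expanded clones (log2 ratio 3.11). Areg, a ligand of the EGF receptor (4.59, interval 3.52 to 5.78), and Ccl1, the ligand of CCR8 (3.75, interval 2.30 to 5.00), rested on 5 and 2 single-cell UMIs and were at 0 in 5 and 8 expanded clones. Mif and Tnfsf11 had log2 ratios of 0.19 and -0.05.

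Chemokine receptors went both ways, with 3 of 7 ranked genes higher and 2 lower. Cxcr6, the receptor for CXCL16 on dendritic cells, was at 203 CPM in single-cell clones and 418, 845 and 1149 CPM across expanded clones (log2 ratio 2.05). Cx3cr1, a marker of effector cells (2.64), and Ccr8 (2.63) were higher, Ccr7 and Cxcr3 were lower, and Ccr2 had a log2 ratio of -0.09. The list median of 0.57 was -0.85 when only genes with a mean of at least 100 CPM were ranked.

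Costimulatory receptors were higher for 7 of 12 ranked genes and lower for none (median 0.61). Tnfrsf9, which encodes 4-1BB and marks recent antigen contact, was at 243 CPM in single-cell clones and 346, 691 and 1200.0 CPM across expanded clones (log2 ratio 1.69). Tnfrsf4, which encodes OX40, followed (1.29), with 29.3% of the single-cell UMIs from 1 cell. All 6 ranked killer lectin-like receptors were higher, among them Klrc1, which encodes the inhibitory NKG2A (1.52), Klrd1, its CD94 partner (1.09), and Klrk1, the activating NKG2D (1.17). Klra3 was the least even of them, as 70.1% of its expanded-clone UMIs came from 1 clone, and its log2 ratio of 1.19 was -0.20 without the 3 largest clones.

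Of 19 ranked genes of proximal TCR signalling, 6 were higher and none lower (median 0.35). Higher were Sh2d2a, an LCK adaptor (1.01), Cd3g (0.96), Cd3e (0.70), Lcp2 (0.65), Ptpn6 (0.62) and Zap70 (0.61), while Lck was at 638 and 629 CPM. Cd5, a negative regulator whose level tracks the strength of TCR signals, had a log2 ratio of 0.35 that came mainly from 1 clone (60.4% of its expanded-clone UMIs), and 15 of 23 clones lay below the single-cell level. Of 16 immediate early genes, Egr1 (1.15), Atf3 (1.15) and Fosb (0.68) were higher and Jun (-0.70) and Zfp36 (-0.85) lower, with a median of 0.05 (-0.12 with the library size without TCR, mitochondrial, ribosomal protein and heat shock genes). None of the 11 heat shock genes (median -0.08) and none of the 16 genes of MHC class I antigen processing (median 0.25) reached 1.5-fold.

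Interferon response genes gave different directions by gene and by sum. Of 28 ranked genes, 11 were lower and 4 higher (median -0.44), but the summed list was at 10391 CPM in single-cell clones and at a lowest, median and highest of 7152, 11885 and 16374 CPM in expanded clones, with 14 of 23 above. Pooled over all expanded cells the sum was 9791 CPM. Lower genes included Socs3 (-2.31), a feedback inhibitor of cytokine signalling, Ifit3 (-1.87), the guanylate-binding protein gene Gbp2 (-1.73), Irf7 (-1.31), Socs1 (-1.02), Irgm1 (-0.97) and Irf1 (-0.66). Gbp2 was at 209 CPM in single-cell clones and at 32.4, 70.8 and 148 CPM across expanded clones, all of them below. The higher genes were Ifitm1, Ifitm2 (2.56) and Ifitm3 (2.19), which code for membrane proteins that restrict viral entry, and Ly6a (0.93), which encodes Sca-1. Ifitm1 had no UMI in single-cell clones and 169 CPM in expanded clones, 58.1-fold higher when set against 3 UMIs. However, it was at 0 in 10 of 23 clones and 44.0% of its UMIs came from 1 clone.

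Of the IFNγ receptor and its signalling chain, 5 of 7 ranked genes were lower and none higher (median -0.68). Ifngr1, the ligand-binding chain, was at 1167 CPM in single-cell clones (1102 to 1235) and at a lowest, median and highest of 442, 795 and 1351 CPM in expanded clones (log2 ratio -0.68, interval -0.76 to -0.59). 21 of the 23 clones were below the single-cell level. The receptor-associated kinase Jak1 was lower in all 23 clones (402 and 248 CPM, log2 ratio -0.69). Jak2 (-0.63) rested on 48 single-cell UMIs and had a log2 ratio of 0.23 when all cells were thinned to equal depth. Ptpn2, a phosphatase that limits the signal, was at 68.9 and 59.0 CPM (-0.22). Ifngr2 had too few counts to rank.

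Mitosis genes were higher in expanded clones for 19 of 21 ranked genes and lower for none (median 1.17). Mki67, the proliferation marker, was at 52.4 CPM in single-cell clones (39.4 to 68.3) and at a lowest, median and highest of 8.24, 110.4 and 252 CPM in expanded clones (log2 ratio 1.14). Ube2c had a log2 ratio of 2.06, with 42.1% of the single-cell UMIs from 1 cell, and Cenpf one of 2.32. Summed over the list, single-cell clones had 875 CPM and expanded clones 239, 2155 and 4764 CPM, so that clones differed widely and 3 of 23 lay below. DNA replication genes differed less, with 7 of 24 higher, 1 lower and a median of 0.45. Among them Pcna was at 98.9 and 133 CPM (0.43).

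Glycolysis genes were higher for 9 of 17 ranked genes (median 0.62), led by the lactate exporter Slc16a3 (1.91), Bnip3 (1.76) and the glucose transporter Slc2a3 (1.44). Pdk1, a kinase that inhibits pyruvate dehydrogenase, was the lower gene (-1.07). Of 30 nuclear genes of the respiratory chain, 2 were higher and 1 lower (median 0.20). All 3 ranked metallothionein genes were higher. Mt1, a zinc-binding protein, was at 103 CPM in single-cell clones and at 207, 612 and 1089 CPM across expanded clones (log2 ratio 2.98), with every clone above. The split of reads between Mt1 and Mt2 (2.87) is uncertain as they are close copies. Of S100, annexin and galectin genes, 12 of 14 were higher and none lower (median 1.61), among them Lgals3 (2.88), S100a4 (2.56), S100a6 (2.12) and Lgals1 (1.67), all above the single-cell level in 23 of 23 clones. In the BCL2 family and death genes, Bcl2 itself, a survival factor of naive and memory cells, was lower (101 and 16.4 CPM, -2.55) and so was Fas (-1.10). Bcl2a1d (1.79), Bcl2a1b (1.19), Pmaip1 (1.25) and Bak1 (0.67) were among the higher genes.

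**Figure D2:**
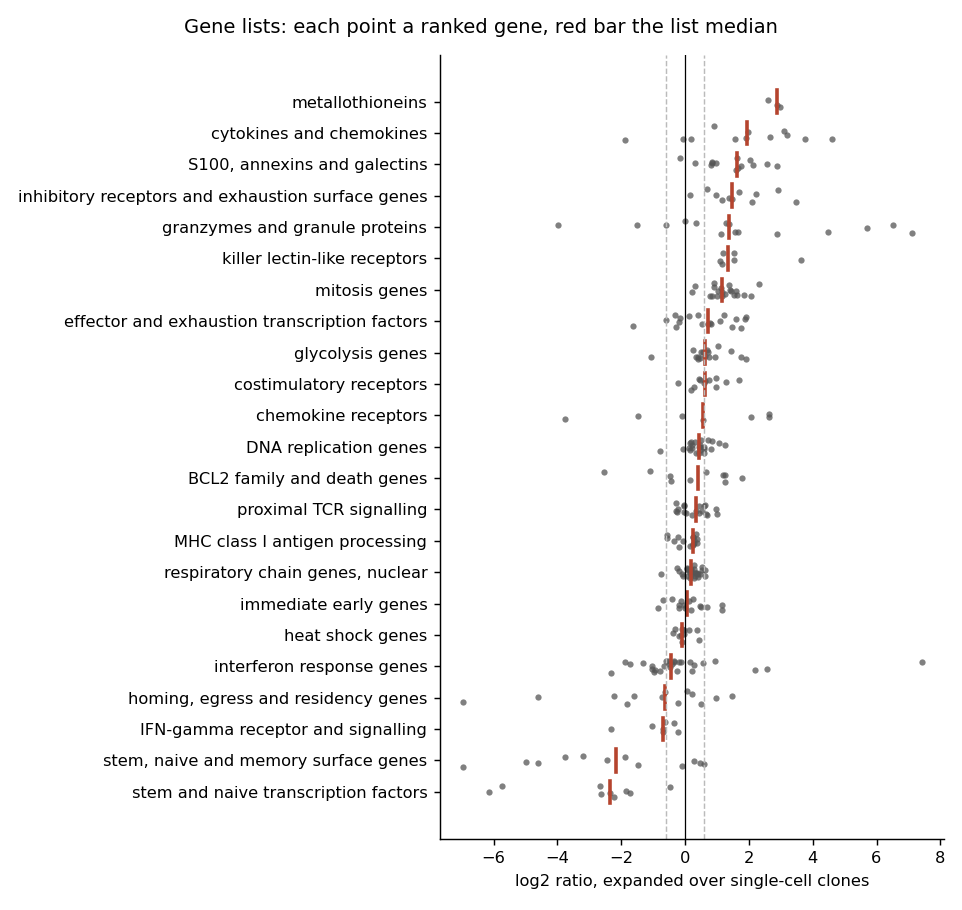
Log2 ratio of pooled CPM in expanded over single-cell clones, with 1 CPM added, for each ranked gene (points) of 23 gene lists, with the list median as a red bar and dashed lines at 1.5-fold. List medians range from -2.34 for stem and naive transcription factors to 2.87 for metallothioneins, and the rightmost point, Ifitm1, had no UMI in single-cell clones.

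Beyond the lists, the 15 lowest ratios also included Nsg2 (84.4 and 0.713 CPM, log2 ratio -5.64), Fam241a (-3.96), Ighm (-3.94), Pmepa1, a feedback inhibitor of TGF-beta signalling (-3.49), Sidt1 (-3.33), Cmah, which hydroxylates sialic acid (-3.32), and Pdlim1 (-3.19). The 15 highest also included Serpinb9b (6.36, interval 4.66 to 7.30, 1 single-cell UMI), the protease inhibitor Serpine2 (3.82) and the metalloprotease Adam8 (3.79). Igfbp7 (4.41, interval 2.96 to 5.66), Gpm6b (3.79, interval 2.34 to 5.04) and the lectin-like receptor Klri2 (3.64, interval 2.35 to 4.93) rested on 2, 2 and 3 single-cell UMIs. Adam8 was above the single-cell level in all 23 clones, at 36.1, 114 and 288 CPM (lowest, median and highest) against 7.76. Gm156 had no single-cell UMI and 41.0 CPM in expanded clones, 14.1-fold higher when set against 3 UMIs. Taking the 30 genes at both ends over the 23 clones, 89.3% of the 690 pairs of a clone and a gene lay on the side of the pooled ratio. The genes were chosen by the pooled ratio of these same clones, so that a high share follows in part from the choice.

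The gene signatures used in the study gave the following counts, with the reservation that they were chosen by the study and are no independent evidence. Of the exhaustion list, 30 of 60 ranked genes were higher and 6 lower (median 0.60). Of the stem-like list named Zehn, 24 of 43 ranked genes were lower and 1 higher (-0.65), whereas the list named Pace had 11 of 39 lower and 9 higher (-0.29).

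The draining lymph node of the same mice gives a reference for both ends. In its 9534 barcodes with Cd8a and Cd8b1, Tcf7 was at 584 CPM and Klf2 at 2126 CPM, both above the single-cell clones of the tumor. Pdcd1 was at 0.910 CPM, Lag3 at 2.78 CPM and Gzmb at 4.25 CPM, all far below the single-cell clones. For these 5 genes the single-cell clones of the tumor thus lay between the lymph node cells and the expanded clones.

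To set depth equal, each cell was thinned to 1600 UMIs, which left out 4 single-cell and 105 expanded-clone cells with fewer UMIs and kept 215 and 3911. Tcf7 was then detected in 43.7% of single-cell clones (37.0 to 50.6) and 0.793% of expanded-clone cells (0.539 to 1.12), where all UMIs gave 63.0% and 1.44%. Shares with all UMIs follow in parentheses. Pdcd1 was found in 17.7% of single-cell and 70.6% of expanded-clone cells (27.4% and 93.7%), and Lag3 in 14.4% and 73.9% (23.7% and 95.8%). These shares kept the order of the pooled levels at equal depth. Gzmb was found in 31.6% and 86.3% of cells (41.6% and 93.9%), Prf1 in 9.30% and 66.4% (21.9% and 88.6%), and Ifngr1 in 82.3% and 67.9% (95.9% and 94.9%). For Gzmk, shares were 17.7% and 16.1% (23.3% and 35.1%). A background of free RNA could not be read from another cell type, since only 4 barcodes of the tumor looked like myeloid cells.

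Single cells were not uniform. Summed over both stem and naive lists, a thinned cell had a median of 8 UMIs in single-cell clones and 3 UMIs in expanded clones, and summed over the inhibitory receptors a median of 1 and 6 UMIs. In expanded clones the pooled stem sum came mostly from the surface list (1576 CPM, transcription factors 369 CPM). That list holds Icos, Cd27, Cd28 and Ltb, which were not 1.5-fold lower in expanded clones. The part of these genes in the overlap was not tested. Of the 215 single-cell clones, 76 (35.3%) had no inhibitory receptor UMI and 15 (6.98%) had at least the expanded median. For the stem sum, 31 (14.4%) were at or below the expanded median, and 9 cells (4.19%) met both conditions. Of the 3911 expanded-clone cells, 7 (0.179%) had both a stem sum and an inhibitory sum on the single-cell side of the single-cell medians.

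**Figure D3:**
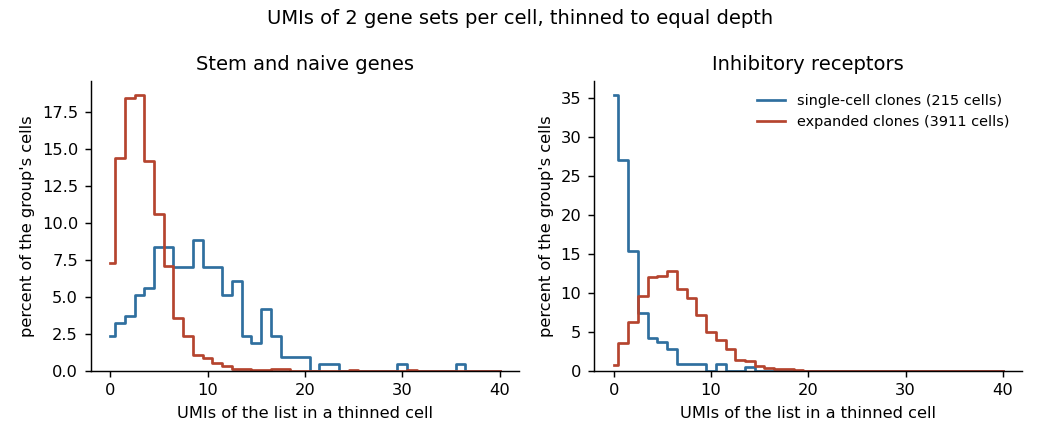
Percent of cells (y axis) by the number of UMIs of the stem and naive lists (left) and of the inhibitory receptor list (right) in cells thinned to 1600 UMIs, for 215 single-cell clones and 3911 cells of expanded clones. The medians are 8 and 3 UMIs on the left and 1 and 6 UMIs on the right, and the groups overlap. The left sum includes Icos, Cd27, Cd28 and Ltb, which were not 1.5-fold lower in expanded clones.

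Pooled clones of intermediate size were nearer to the expanded clones for most of the genes compared. In the pooled clones of 2 to 19 cells, 29 of the 30 genes at both ends and 1233 of the 1323 genes at least 1.5-fold apart had a level nearer to expanded than to single-cell clones. These genes were chosen by that same difference, and counting error is larger in single-cell clones, so that both counts lean to the expanded side. Clones of 6 to 19 cells held 273 of the 378 cells of the pool. Tcf7 was at 358, 33.4, 24.5, 17.8 and 4.08 CPM in clones of 1, 2, 3 to 5, 6 to 19 and 20 or more cells. Pdcd1 was at 202, 457, 732, 826 and 871 CPM in the same order. Already in clones of 2 cells the levels of Lag3 (836 CPM) and Tcf7 were far from those of single cells. Klf2 (691 CPM), Prf1 (234 CPM) and Mt1 (123 CPM) were in clones of 2 closer to the single-cell level, and nearer to the expanded level in clones of 3 to 5 (208, 988 and 493 CPM). Clones of 2 hold 24 cells and 89736 UMIs, so that their values are the least precise.

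**Figure D4:**
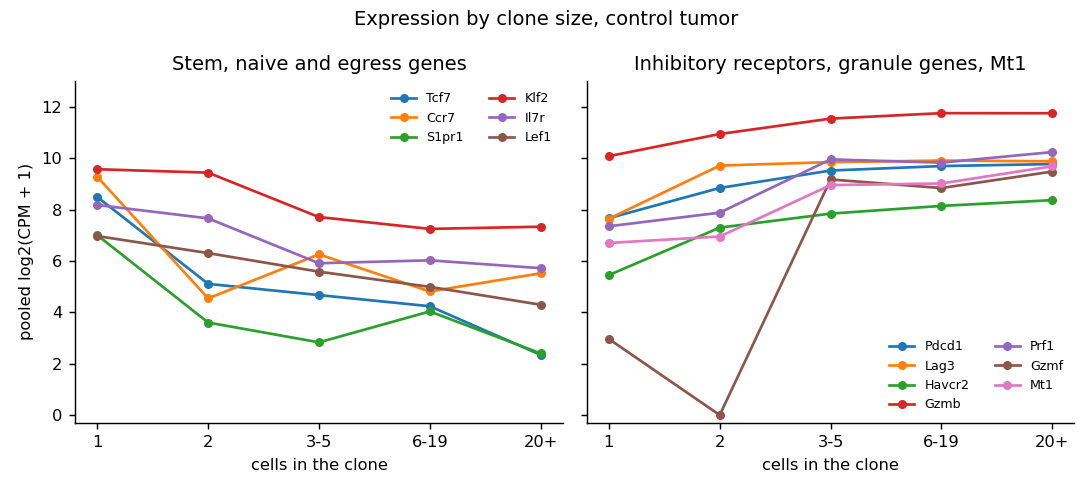
Pooled log2(CPM + 1) of 6 stem, naive and egress genes (left) and of 7 inhibitory, granule and metallothionein genes (right) by clone size. In the right panel Pdcd1 is nearly level from clones of 3 to 5 cells on, whereas Mt1 rises further. In the left panel Tcf7 goes on from 24.5 CPM in clones of 3 to 5 to 4.08 CPM in clones of 20 or more. Gzmf had no UMI in clones of 2.

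Clones on both sides of the threshold of 20 cells are given as a description. The 3 clones just inside it (20 to 28 cells, 76 cells in all) had 6.74 CPM of Tcf7, 847 CPM of Pdcd1, 2596 CPM of Gzmb and 987 CPM of Prf1. The 3 clones just outside (18 or 19 cells, 55 cells in all) had 12.9, 855, 3765 and 1093 CPM. Other genes lay further apart there, as Gzma was at 195 CPM inside and 5.17 CPM outside, Mki67 at 170.1 and 46.5 CPM, and Ifitm1 at 1.68 and 142 CPM.

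The alpha J segment TRAJ7 took a larger share of expanded clones than of single-cell clones. It was used by 9 of 23 expanded clones (39.1%, interval 19.7 to 61.5), 16 of 59 clones of 2 to 19 cells (27.1%, 16.4 to 40.3) and 10 of 219 single-cell clones (4.57%, 2.21 to 8.24). The segment was found by looking through all segments, so that these shares are a description with no test. In the CD8-IFNgRKO tumor it was used by 4 of 25 expanded and 11 of 471 single-cell clones. All 9 expanded TRAJ7 clones had the same last 27 bases of the CDR3 and joined them to 8 different V segments. The same end was found in 15 clones of 2 to 19 cells, where 16 used TRAJ7, and in 10 single-cell clones, as many as used it, so that it is no trait of expanded clones. The alpha chains of 3 expanded clones show it, with the shared end in capitals.
Clone 4, TRAV9D-3: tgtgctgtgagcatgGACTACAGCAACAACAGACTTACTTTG
Clone 12, TRAV14N-3: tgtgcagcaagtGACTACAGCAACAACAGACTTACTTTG
Clone 21, TRAV7N-6: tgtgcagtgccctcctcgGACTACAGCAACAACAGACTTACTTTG

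Another pair of clones had nearly the same alpha chain. Clones 9 (64 cells) and 11 (49 cells) had alpha CDR3s of 39 bases that differed at 2 bases, given in capitals, and had the same translation, although they came from different V segments and were paired with different beta chains.
Clone 9, TRAV7D-2: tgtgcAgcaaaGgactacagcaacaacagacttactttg
Clone 11, TRAV5-4: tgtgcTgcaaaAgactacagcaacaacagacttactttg

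Other segments also differed in share between the groups, again as a description with no test. TRBV16 was used by 5 of 23 expanded and 16 of 219 single-cell clones (21.7% and 7.31%), TRBV13-3 by 4 and 5 (17.4% and 2.28%), and TRBJ2-7 by 2 and 59 (8.70% and 26.9%). The expanded TRBV16 clones include clones 14 and 16, which had an identical beta CDR3 and may be 1 clone. In the CD8-IFNgRKO tumor TRBV16 was used by 0 of 25 expanded and 37 of 471 single-cell clones. TRBJ2-7 was used there by 9 and 105, and TRBV13-3 by 3 and 19 (12.0% and 4.03%). TRAJ22 was found in 25 single-cell clones and in no expanded clone (interval 0 to 14.8% for 23 clones). The CD8-IFNgRKO tumor had it in 39 single-cell clones and in no expanded clone. The CDR3 had a median length of 42 bases for both chains in both groups.

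Among the expanded clones, 2 shared a beta chain. Clones 14 (37 cells) and 16 (33 cells) had an identical beta CDR3 (TRBV16 and TRBJ2-1) and different alpha CDR3s, and 49 of their 70 cells (70.0%) held both alpha contigs. In such cells the rule assigned the clone by the alpha contig with more UMIs, and the count of 23 expanded clones takes them as 2. Outside them, 15 of 3946 expanded-clone cells (0.380%) had more than 1 TRA contig. Capitals again mark the junction.
Clones 14 and 16, TRBV16 and TRBJ2-1: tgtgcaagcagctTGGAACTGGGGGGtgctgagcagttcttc
Clone 14, TRAV13N-1 and TRAJ4: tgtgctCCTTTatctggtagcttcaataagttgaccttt
Clone 16, TRAV13N-1 and TRAJ7: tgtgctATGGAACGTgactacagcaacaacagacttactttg

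Both clones were nearer to single-cell clones than the other 21 for several genes but not for all, a pattern noticed after their values were seen. Tcf7 was at 124 and 77.8 CPM in clones 14 and 16, and at 0 to 27.6 CPM in the other 21. S1pr1 was at 98.9 and 95.1 CPM, and at most 29.2 CPM elsewhere. Prf1 was at 49.4 and 60.5 CPM against 639 to 1442 CPM. Neither clone overlapped the range of the others for these genes. Pdcd1 (189.5 and 319.9 CPM against 651 to 988), Havcr2 (115 and 121 against 156 to 419) and Tox (8.24 and 0 against 48.3 to 214) were lower, and Ifngr1 (1351 and 1167 against 442 to 1082) was higher than in every other expanded clone. In single-cell clones Tox was at 52.4 CPM and Prf1 at 162 CPM, so that the pair lay below the single-cell level of both genes. For Tox another expanded clone (48.3 CPM) was nearer to that level. Ccr7 (140 and 95.1 CPM, others 0 to 334) and Klf2 (288 and 147 CPM, others 52.6 to 448) did not set them apart. Lef1 and Il7r also lay within the range of the others. Effector and exhaustion transcription factors summed to 5430 to 5645 CPM in the pair, at most 5152 CPM in the others and 2182 CPM in single-cell clones. For immediate early genes the sums were 15242 to 15410, at most 11649 and 7241 CPM. Leaving both clones out changed the pooled log2 ratio of Tcf7 from -6.14 to -6.39 and that of Prf1 from 2.89 to 2.90.

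**Figure D5:**
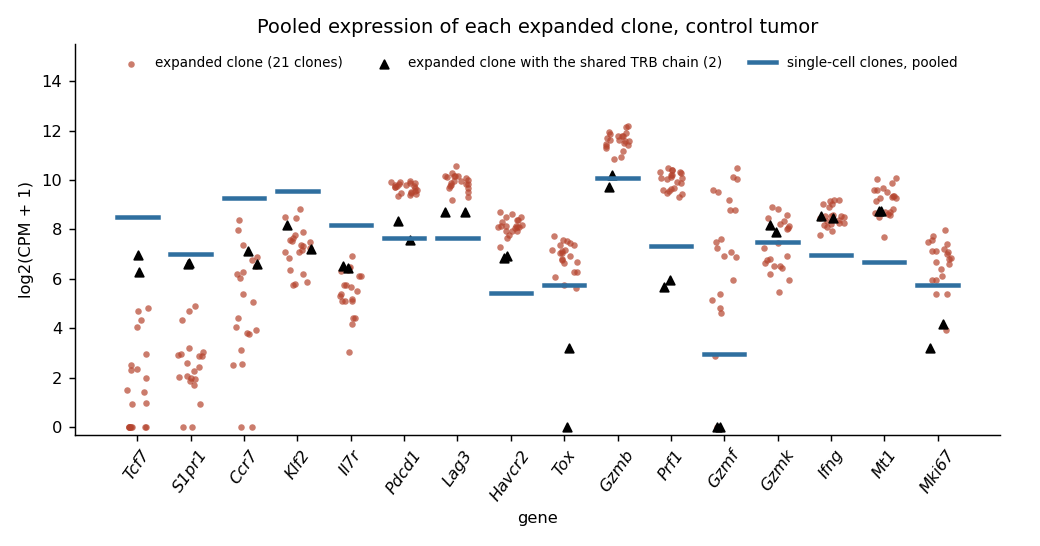
Log2(CPM + 1) of 16 genes in each of the 23 expanded clones (red points and, for the 2 clones with the shared beta chain, black triangles) and in the pooled 219 single-cell clones (blue bars). The triangles lie above all other expanded clones for Tcf7 and S1pr1 and below them for Pdcd1, Havcr2, Tox and Prf1.

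In the CD8-IFNgRKO tumor the same rule gave 25 expanded clones with 5678 cells and 471 single-cell clones. Of 5496 ranked genes, 1243 (22.6%) were higher and 698 (12.7%) lower in expanded clones, with a median log2 ratio of 0.16 and a greater depth of expanded-clone cells (median of 10158 UMIs). Of the genes higher in the control tumor and ranked in both, 569 of 758 were also higher there and 3 lower, and of the lower genes 325 of 477 were also lower and 4 higher. Across the 5219 genes ranked in both, Pearson's r of the log2 ratios was 0.84, a description over genes, which are not independent. Log2 ratios in the CD8-IFNgRKO tumor were -6.53 for Tcf7, 2.73 for Pdcd1, 3.38 for Lag3, 4.13 for Prf1 and 5.96 for Mt1. Gzma was at 142 and 158 CPM there (log2 ratio 0.15) and was not lower in expanded clones as it was in the control tumor. With 1 library per genotype, no difference between the tumors was tested.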

How the data were processed

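The authors sequenced 5′ single-cell RNA of sorted CD8 T cells from tumors and draining lymph nodes (4 libraries) and the TCR of the 2 tumors, with 10x Genomics 5' v2 reagents, and processed the reads with Cell Ranger 6.0.0 against mm10. The deposited matrices hold raw UMI counts of 32285 genes per barcode, and the deposited contig tables hold the UMI counts and CDR3 of each assembled TCR contig. Counting by UMI removes PCR copies. TCR and RNA of a cell were joined by barcode within a genotype. Samples were grouped by the tissue and genotype in the labels.

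Counts were summed over the cells of each group or clone and divided by the summed UMIs, as CPM. A gene was ranked with a mean of at least 20 CPM over both groups and at least 100 UMIs in all, and 1.5-fold on log2(CPM + 1) was the size used for counts of genes. TCR segment, mitochondrial and ribosomal protein genes were not ranked. Named were the 15 genes at each end and members of the lists (a few of them are not reported here), and the 5 largest clones and the smallest. The clones compared and the gene lists were chosen with earlier results of these data known. With 1 library per group no test was possible. Exact 95% intervals (Poisson, conditional binomial, Clopper-Pearson) cover counting error only. Doublets were kept, and leaving out the 8% of barcodes with the highest Scrublet scores was an alternative. The procedure was tried on simulated independent counts with almost no CPM added. Such counts leave out the spread between cells and between clones, so that the trial does not cover it. Coordinates are RefSeq's for GRCm38.p6, the assembly of mm10, which gave them for 589 of 590 named genes. Sequences come from the deposited contigs. The tools were scanpy 1.11.5, pandas 2.3.3, scipy 1.17.1, numpy 2.4.6 and matplotlib 3.10.9 in Python 3.11.15.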

Additional observations from a re-analysis of the deposited data

Results flagged for a closer look

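For 7 genes, expanded clones were at least 1.5-fold to one side of single-cell clones in the control tumor and at least 1.5-fold to the other side in the CD8-IFNgRKO tumor. The log2 ratio of Chchd10, a mitochondrial protein, was -0.76 in the control and 1.08 in the CD8-IFNgRKO tumor. Egr1, an immediate early factor of TCR signalling, had log2 ratios of 1.15 and -1.39 in the same order. For Fdps, an enzyme of the mevalonate pathway, they were -0.94 and 0.94. The log2 ratio of Fosb, an AP-1 subunit, was 0.68 in the control and -1.36 in the CD8-IFNgRKO tumor. Gzmk, granzyme K, had log2 ratios of -0.59 and 2.49 in the same order. For Itga4, an integrin chain of homing, they were -0.64 and 1.11. The log2 ratio of Prr7, an adaptor protein, was 0.64 in the control and -0.64 in the CD8-IFNgRKO tumor. Gzmk had the widest gap. Single-cell clones of the control tumor gave only 45 UMIs of Prr7, 50 of Fdps, 61 of Chchd10 and 68 of Fosb. Prr7 was just past 1.5-fold in both tumors. Under some alternative Egr1 fell to 0.57 and Fosb to 0.48 in the control tumor, which is less than 1.5-fold. In the control tumor Gzmk was at 0.33 and Itga4 at 0.13 without the 3 largest clones, where neither was opposite to the CD8-IFNgRKO tumor, and Gzmk was at 0.21 with equal weight of clones. With 1 library per genotype the difference between the tumors was not tested.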

How the results depend on the processing

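No paired analysis was possible because each genotype has 1 library per tissue, and for the same reason there was no replicate to leave out. Of 24 alternatives, 18 were listed beforehand and 6 were chosen after seeing the data.

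The number of ranked genes differs between the following settings, so that the counts have to be read against it. With a mean of at least 100 CPM, 229 of 1340 ranked genes were higher and 81 lower. With no filter beyond 1 UMI, 2633 of 15555 were higher and 2241 lower. The CD8-IFNgRKO tumor gave 371 and 155 of 1334, and 2933 and 2253 of 16706. With the library size computed without TCR, mitochondrial, ribosomal and heat shock genes, 1063 of 6383 ranked genes were lower. In the CD8-IFNgRKO tumor 1330 of 6467 were. The share of clone cells in expanded clones, 87.1%, was 88.3% with TRB alone, 90.8% for clones of 10 or more, 77.4% for clones of 50 or more and 88.1% with at least 2 UMIs of each contig. The share of pairs of a clone and an end gene on the pooled side, 89.3%, was 91.6% with exactly 1 TRA and 1 TRB, 97.3% for clones of 50 or more and 92.4% without the clones with a shared beta chain. The end genes were chosen from the same clones, so that this share is a description only.

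Of 331 genes, 186 were at least 1.5-fold apart, and 5 of these changed sign under some alternative, as did 43 of the 145 genes within 1.5-fold. All 30 genes at both ends moved by over 1.5-fold under some alternative and none changed sign. For Slamf6, Dapl1, Fam241a and Cmah only adding 10 CPM in place of 1 CPM did so, which shrinks any ratio with a low side. Serpine2 moved with the choice of clones, from 3.82 to 3.12 without the 3 largest. Without the 3 largest clones Itga4 was at 0.13, Klra3 at -0.20 and Gzmk at 0.33, with equal weight of clones Gzmk was at 0.21, and after thinning Gins2 was at -0.014 and Jak2 at 0.23. The median of the stem, naive and memory surface genes was 0.090 when the list was limited to a mean of at least 100 CPM. That filter changed no ratio and left 6 of the 12 ranked genes. They were Ccr7 (-3.76), Il7r (-2.46), Ltb (-0.09), Cd28 (0.27), Cd27 (0.46) and Icos (0.60). The cause of the changes of sign of single genes was not tested. Over all alternatives Tcf7 ranged from -6.51 to -4.71, Pdcd1 from 1.94 to 2.42, Prf1 from 2.66 to 3.90, Gzmb from 1.47 to 2.05 and Ifitm1 from 4.16 to 7.76.

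The 219 single cells, with 1030896 UMIs, limit every ratio. A gene with no UMI there was set against a floor of 3 UMIs, which is 2.91 CPM. A single-cell clone is a clone sampled once, not one known to have 1 cell in the tumor. Clone and mouse cannot be told apart with these labels.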

Other observations

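The 2 expanded clones with the shared beta chain differed from the other 21 in further genes. Of 1424 genes with a mean of at least 100 CPM, 198 were higher in both clones than in all others and 111 lower. As 49 of their 70 cells held both alpha contigs, the 2 may be 1 clone split by the rule. Their agreement is then not that of 2 independent clones. Serpinb1a, an inhibitor of neutrophil-type proteases, was at 766 and 639.8 CPM, against 7.53 to 83.9 CPM in the others. The integrin chains Itgb1 (832 and 986 against 108 to 366 CPM) and Itgb7 (305 and 337 against 6.48 to 101 CPM) were higher, and so were the chemokine receptors Cxcr3 (247 and 268 against 17.8 to 131 CPM) and Ccr2 (214 and 277 against 6.57 to 193 CPM). Spp1 was at 0 in both clones and at 6.45 to 3220.2 CPM in the others. Single-cell clones had 19.4 CPM of Serpinb1a, 270 of Itgb1, 203 of Itgb7, 119 of Cxcr3, 29.1 of Ccr2 and 46.6 of Spp1. Both clones thus lay below the single-cell level for Spp1 and above it for the others, so that these genes did not place them between the groups. The 70 cells hold 237014 UMIs, so that 1 UMI is worth 4.22 CPM, and their median depth was 3291 UMIs. Clones 14 and 16 had the fewest UMIs of all expanded clones (121350 and 115664, the next 138572), which favours extreme values in them. All 59 UMIs of the macrophage marker Lyz2 in the pair, and 97.6% of its 83 Cd74 UMIs, came from 1 cell for each gene. The genes named here were picked by their difference, and the values are a description with no test.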
